A study of Mus musculus with 12 samples.

Results

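Mucin-type O-glycosylation enzymes are the Golgi transferases that build the sugar chains carried by intestinal mucins. The group held 40 mouse genes, chosen by name, and these matched 41 of the 48795 Ensembl gene rows of the table through the GENCODE vM21 annotation, because St6galnac2 has 2 Ensembl identifiers. By role, 12 genes start the chain, 7 form or branch its cores, 7 extend it, 9 add sialic acid and 5 add fucose or sulfate. The list also holds genes that act mainly on N-glycans (Fut8, St6gal1) or glycolipids (B3gnt5, St6galnac6), and the chaperone C1galt1c1. The genes were named by function, with no threshold on a measured value, but with earlier results of these libraries known. RNA-seq covered 12 libraries from organoids of the mouse colon, a culture in which crypt epithelium grows as closed buds in Matrigel. The question of the design was how the aryl hydrocarbon receptor (AhR), a ligand-activated transcription factor, bears on organoids kept as stem cells or left to differentiate.

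There were 4 groups of 3 libraries. KO differentiated organoids came from AhR deficient (AhR-/-) mice and were moved for 3 days to ENR medium, which holds no Wnt-3A. WT differentiated organoids came from wild-type mice and had the same medium and time. KO stem organoids were AhR-/- and were kept in WENR medium, with Wnt-3A, Noggin, Rspondin-1 and EGF, and WT stem organoids were wild type in WENR medium. All 4 groups came from colon on the C57BL/6 background, and no AhR ligand is named for any of them. How the Ahr allele was disrupted, the age and sex of the mice and the number of mice behind each group are not stated, so p-values here measure only the spread between libraries, which may be technical.

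As background, mucin-type O-glycans begin when a polypeptide N-acetylgalactosaminyltransferase (Galnt enzyme) attaches N-acetylgalactosamine to a serine or threonine. The chain then grows through a core 1 structure made by C1galt1 with its chaperone C1galt1c1, a core 3 structure made by B3gnt6, or branched core 2 and core 4 structures made by Gcnt enzymes, before galactose, N-acetylglucosamine, sialic acid, fucose and sulfate are added. In the colon these chains give the mucus gel and the glycocalyx their water-binding and protective properties, with core 3 structures known as a feature of colonic mucin.

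Promoters were read for the members whose change with genotype passed the test in both culture conditions, since AhR binds DNA with its partner Arnt at a core of GCGTG. RefSeq promoter windows (300 bases, 250 before the start and 50 after it, build GRCm38.p6) matched 28 of the 40 genes. Of 41 member windows, 20 (48.8%) held GCGTG on either strand, against 32.4% of all 32851 windows. None of them held the longer form TNGCGTG, which contains GCGTG and was in 5.07% of all windows, and 1 (Fut8) held the TCF/LEF motif CTTTGAT, which was in 3.73%. Among the 6 members called in both conditions St3gal1 had no window, Chst4 and St6galnac6 had no GCGTG, and the windows of Gcnt4, B3gnt7 and St3gal3 did. These windows are shown 5′ to 3′ on the strand of the gene, with capitals marking GCGTG or its reverse complement CACGC. A match is a run of letters and not a measured binding site.
Gcnt4, first start, chr13:96924094-96924393, plus strand: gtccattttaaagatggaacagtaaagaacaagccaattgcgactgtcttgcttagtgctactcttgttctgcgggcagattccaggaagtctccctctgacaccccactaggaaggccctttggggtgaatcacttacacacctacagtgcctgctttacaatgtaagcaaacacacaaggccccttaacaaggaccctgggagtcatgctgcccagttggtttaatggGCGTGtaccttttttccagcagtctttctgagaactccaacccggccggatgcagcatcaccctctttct
Gcnt4, second start, chr13:96924463-96924762, plus strand: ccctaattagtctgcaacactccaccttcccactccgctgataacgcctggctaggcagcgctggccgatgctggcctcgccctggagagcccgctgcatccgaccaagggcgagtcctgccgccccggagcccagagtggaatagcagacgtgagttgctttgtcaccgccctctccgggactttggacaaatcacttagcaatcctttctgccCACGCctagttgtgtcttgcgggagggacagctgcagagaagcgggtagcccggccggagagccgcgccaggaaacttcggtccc
B3gnt7, chr1:86302971-86303270, plus strand: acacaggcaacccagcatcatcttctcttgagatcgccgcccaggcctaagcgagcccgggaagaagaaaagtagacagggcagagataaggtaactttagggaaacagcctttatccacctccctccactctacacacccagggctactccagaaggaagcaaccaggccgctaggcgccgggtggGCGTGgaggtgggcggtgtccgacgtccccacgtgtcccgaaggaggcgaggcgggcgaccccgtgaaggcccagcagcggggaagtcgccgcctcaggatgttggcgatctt
St3gal3, chr4:118134897-118135196, minus strand: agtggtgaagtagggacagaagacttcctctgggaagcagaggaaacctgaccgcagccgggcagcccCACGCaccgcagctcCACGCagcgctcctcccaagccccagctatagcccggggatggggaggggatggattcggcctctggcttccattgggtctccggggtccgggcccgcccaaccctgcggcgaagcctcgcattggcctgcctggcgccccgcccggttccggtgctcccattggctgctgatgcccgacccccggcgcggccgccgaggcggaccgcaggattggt

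Libraries held between 25.1 and 99.0 M reads. Values are normalized counts, that is, reads per gene divided by a size factor of the library, and their totals lay between 52.6 and 57.7 M. The 6 epithelial markers were detected in every group, and the sum over 8 immune and blood markers was at most 33.4. Ahr reads were higher in the KO libraries (3824, 3356 and 3110.0 in KO differentiated, 2127, 2236 and 2260.0 in WT differentiated, 2503, 2831 and 2690.3 in KO stem and 1762, 1746 and 1909 in WT stem libraries), so its count does not show the disruption, whereas the AhR target Cyp1b1 fell in KO libraries of both conditions (log2 difference -5.19 ± 0.23 in differentiated and -4.35 ± 0.23 in stem organoids). WT stem library 1 stood apart, with a sum of 22036 over 10 fibroblast markers, against 51.4 to 638 in the other 11 libraries. KO differentiated library 1 stood apart within its group, and it was the lowest of the 3 for 23 of the 37 members tested. Results were therefore also computed without both libraries.

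Of the 41 rows, 37 were tested, as they had a normalized count of 10 or more in 3 or more libraries. B3gnt8, Chst5 and the second St6galnac2 identifier stayed at or under 2.29, 2.22 and 4.77 in every library, and St6galnac1, which forms the sialyl-Tn structure, had no read in any library, so that 3 reads per library, a normalized count of 1.62 to 6.81, is the level such a result allows. Galnt5 passed this minimum only through the differentiated libraries, so that a difference between culture conditions had to follow. Galnt18 ranged from 4.54 to 66.0, with KO stem 2 and KO differentiated 2 highest, and was not called in any comparison.

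Levels between genes were set side by side as normalized count per kb of exon. B3gnt3, which adds N-acetylglucosamine to extend core 1, had the highest level in KO differentiated (7060.0 ± 852 per kb, SD, n = 3), WT differentiated (10072 ± 77.2) and KO stem organoids (7053 ± 294). In WT stem organoids St3gal4 (6825 ± 651 per kb) and B3gnt3 (6680.0 ± 687 per kb) were within their spread of each other. Behind them in WT differentiated organoids came St3gal4 (4549 ± 854), B4galt1 (3205 ± 239.6) and Gcnt3 (3077 ± 167). Among the initiating enzymes Galnt1, Galnt3, Galnt4, Galnt7 and Galnt12 had group means between 1073 and 2566 per kb, whereas Galnt5, Galnt14 and Galnt18 had at most 124 per kb. The core 3 enzyme B3gnt6 was low throughout, with 12.3 ± 2.87 per kb in KO differentiated, 26.3 ± 1.21 in WT differentiated, 4.50 ± 1.86 in KO stem and 3.85 ± 0.482 in WT stem organoids.

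**Figure D1:**
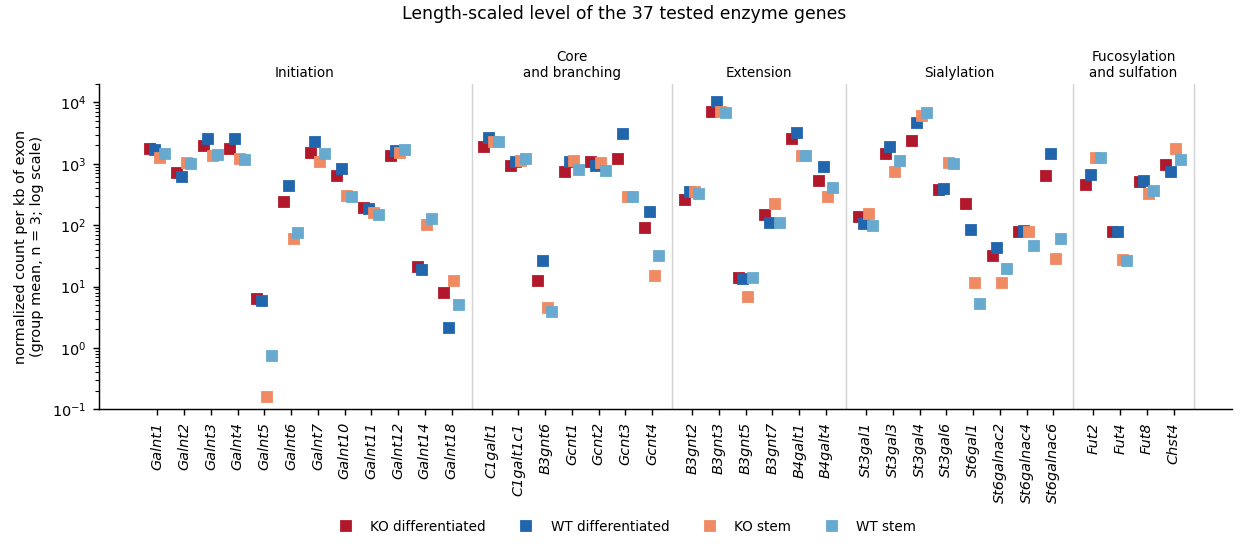
Group mean of the normalized count per kb of exon for the 37 tested enzyme genes, on a log axis, with 1 square per group (n = 3 libraries) and genes ordered by role. B3gnt3 and St3gal4 lie at the top, Galnt5, Galnt18, B3gnt5 and B3gnt6 at the bottom, and St6gal1, St6galnac6, Gcnt3 and Galnt6 lie lower in both stem groups than in both differentiated groups.

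The first pair of comparisons asked how the enzymes differ between differentiated and stem organoids. In the medium without Wnt-3A, 18 of the 37 members tested were higher and 6 lower in both genotypes. Taken by genotype, 34.1% of all genes were higher and 33.6% lower in KO, and 36.3% and 35.9% in WT. The share of all genes higher or lower in both genotypes is not given here, so these shares are not a like measure for the 18 and 6. Galnt5 is among the 18, and its rise had to follow from the minimum count. St6galnac6 and St6gal1, sialyltransferases that act mainly on glycolipids and N-glycans, rose with log2 differences of 4.38 and 4.22 in KO and of 4.58 and 4.04 in WT. The branching enzymes Gcnt3 (2.32 in KO and 3.41 in WT) and Gcnt4 (2.49 in KO and 2.37 in WT) rose as well. Galnt14, St3gal6, Fut2, St3gal4, Chst4 and Galnt2 fell in both genotypes. Log2 differences are between means of log2(normalized count + 1), and adjusted p-values come from limma with Benjamini-Hochberg adjustment over all 14856 genes tested, with a call at an adjusted p under 0.05.

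In KO organoids 28 of 37 members were called, 19 higher and 9 lower in the differentiated condition, beside 67.7% of all genes tested (34.1% higher and 33.6% lower). In WT organoids 29 of 37 were called, 23 higher and 6 lower, beside 72.2% of all genes (36.3% higher and 35.9% lower). The share called, 75.7% of members in KO and 78.4% in WT, was close to that of all genes, while the share higher was 51.4% of members in KO and 62.2% in WT. The median log2 difference of the members was 0.47 in KO and 0.53 in WT, and that of all genes 0.01 in each. In both genotypes 18 members were called higher and 6 lower, and Gcnt1 was called lower in KO and higher in WT. Leaving out any 1 library kept 25 of the 28 calls in KO and 27 of the 29 in WT. All these counts include Galnt5, whose difference had to follow from the minimum count. With the replicate number as a block within genotype, 31 members were called in KO, with Galnt7 higher (0.47, adjusted p = 0.024) and C1galt1 (-0.24, adjusted p = 0.013) and B3gnt2 (-0.44, adjusted p = 0.033) lower.

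**Figure D2:**
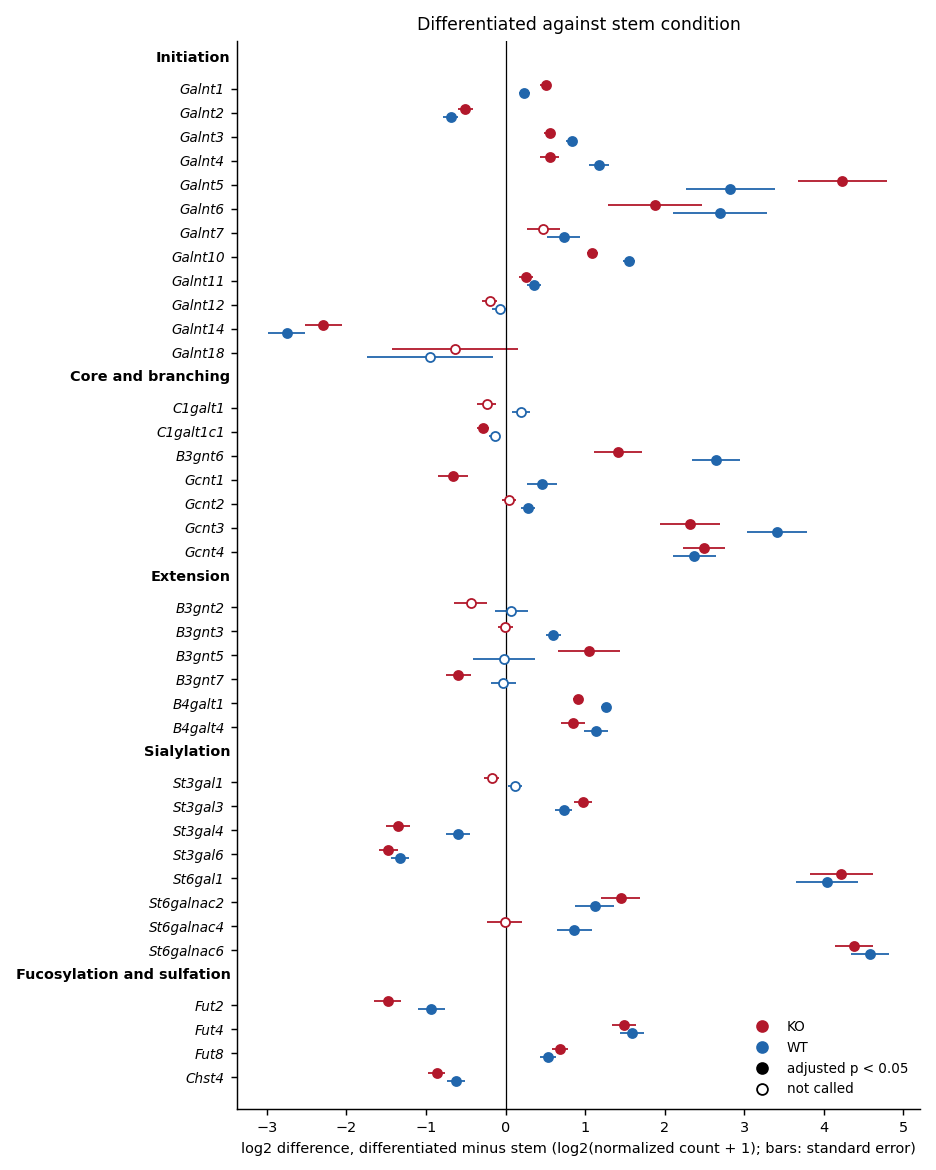
Log2 difference, differentiated minus stem, for each tested enzyme gene in KO (red) and WT (blue) organoids, with standard errors and filled points where the adjusted p was under 0.05. St6galnac6 and St6gal1 lie beyond 4 in both genotypes, Galnt14 lies beyond -2, and Gcnt1 has filled points on opposite sides of 0.

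The second pair of comparisons asked what AhR loss changed within each culture condition. In differentiated organoids most of the called enzymes were lower in KO, among them 6 of 7 core and branching enzymes, led by Gcnt3 (log2 difference -1.35) and B3gnt6 (-1.10), and 5 of 12 initiating enzymes. Of all genes 13.9% were lower. Each of the 6 core and branching calls was lost without at least 1 library. St6galnac6 (-1.27) and St3gal4 (-0.93) fell among the sialyltransferases, while St6gal1 (1.27), B3gnt7 (0.47), Chst4 (0.39) and St3gal1 (0.36) were the members that rose. In stem organoids 7 of the 37 members tested were called (18.9%), beside 6.57% of all genes. B3gnt7 (1.04), St3gal1, Chst4 and Gcnt2 rose there and St6galnac6 (-1.06), Gcnt4 and St3gal3 fell.

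In differentiated organoids 22 of 37 members were called, 4 higher and 18 lower in KO, beside 27.6% of all genes tested (13.8% higher and 13.9% lower). These are 59.5% of the members, with 10.8% higher and 48.6% lower. The median was -0.34 for the members and 0.02 for all genes. In stem organoids 7 of 37 were called, 4 higher and 3 lower in KO, beside 6.57% of all genes (3.48% higher and 3.09% lower). These are 18.9% of the members, with a median of -0.02 for the members and -0.04 for all genes. With edgeR the split of all called genes in stem organoids was 635 higher and 308 lower, beside 517 and 459 with limma and 840 and 1144 with DESeq2, and that of the members with edgeR 4 and 2. Both comparisons called B3gnt7, St3gal1 and Chst4 higher and Gcnt4, St3gal3 and St6galnac6 lower in KO. The comparisons share no library, but the spread per gene was estimated over all 12 libraries, so that their calls are not independent. The share of all genes called in both is not given here.

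**Figure D3:**
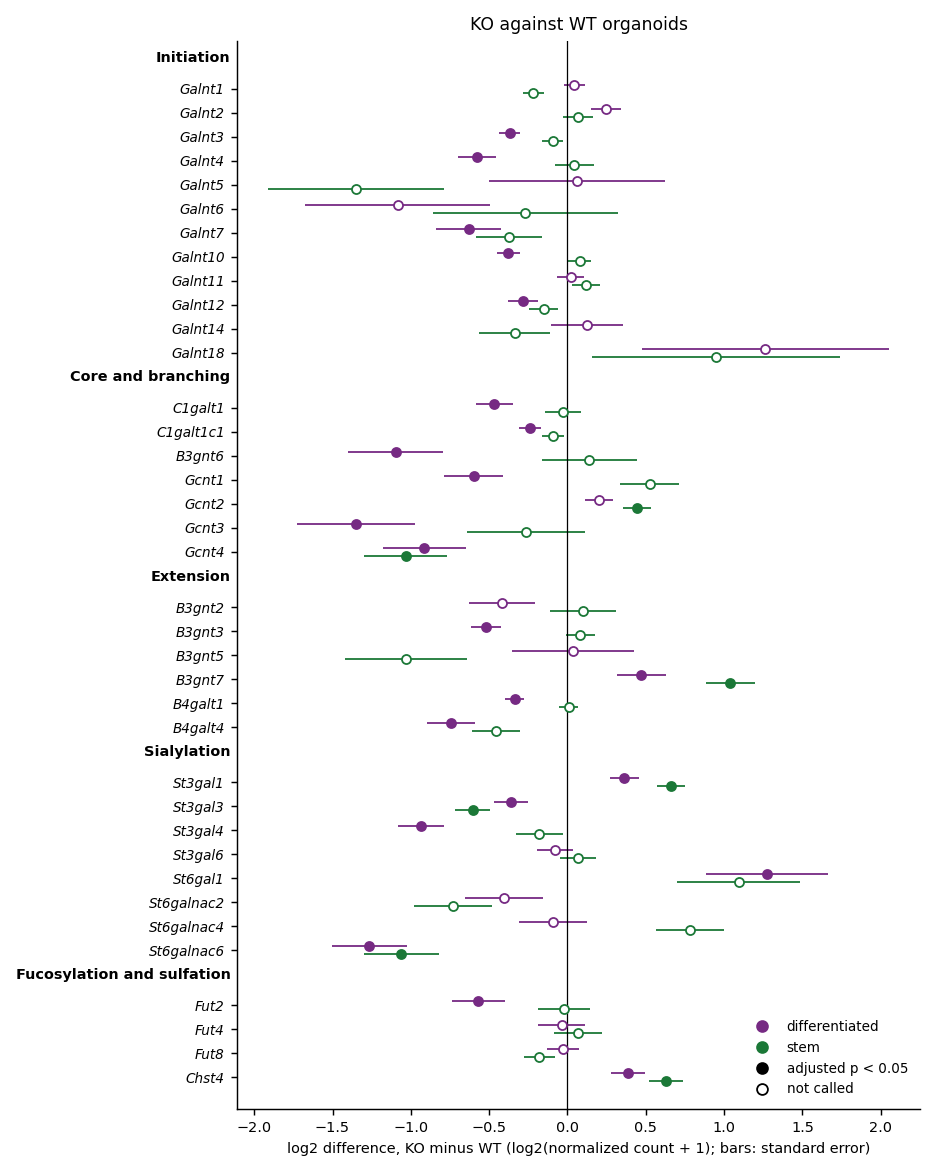
Log2 difference, KO minus WT, for each tested enzyme gene in differentiated (purple) and stem (green) organoids, with standard errors and filled points where the adjusted p was under 0.05. In differentiated organoids 18 filled points lie left of 0 and 4 right of it, and in stem organoids 3 lie left and 4 right.

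The count in differentiated organoids leaned on single libraries. It was 14 without KO differentiated 1 and 9 without WT differentiated 1 or WT differentiated 3. Calls over all genes fell as well, from 4103 to 2421 without KO differentiated 1, 2557 without WT differentiated 1 and 2233 without WT differentiated 3. The 8 calls on Galnt3, Galnt4, Galnt10, B3gnt3, B4galt1, B4galt4, St3gal4 and St6galnac6 held under every alternative run. In stem organoids the count was 4 without KO stem 1 or WT stem 2, 12 without KO differentiated 1, and 15 without both libraries that stood apart, and the calls on B3gnt7, St3gal1, St3gal3 and Chst4 held throughout. Calls over all genes in stem organoids were 976 with all libraries, 363 without KO stem 1 and 495 without WT stem 2. They were 1414 without KO differentiated 1 and 2664 without both libraries that stood apart. Markers moved with the genotype as well. In differentiated organoids the sum over 14 absorptive colonocyte markers was 143565 to 286899 in KO and 508749 to 640432 in WT libraries, with 13 of 14 lower in KO, and all 5 stem cell markers tested were higher in KO, with a sum of 17977 to 21588 in KO and 12281 to 13539.6 in WT libraries over 6 listed. The sum over 16 goblet and secretory markers was 9591 to 23393 in KO and 18456 to 24375 in WT libraries, with 2 of 16 lower in KO and none higher. In stem organoids 7 of 14 colonocyte markers were lower in KO, and the colonocyte sum was 74112 to 82754 in KO and 93771 to 154520.0 in WT libraries. The goblet sum in stem organoids was 3489 to 4601 in KO and 4275 to 4923 in WT libraries, with 4 of 16 lower in KO. Beside these marker counts, 13.9% of all genes were lower and 13.8% higher in KO differentiated organoids, and 3.09% were lower in KO stem organoids. Capn9 had no read in KO stem libraries, and Zg16 and Aqp8 had none in WT stem libraries. The part of these markers in the results was not tested. In bulk RNA fewer cells of a type and less RNA per cell cannot be told apart.

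**Figure D4:**
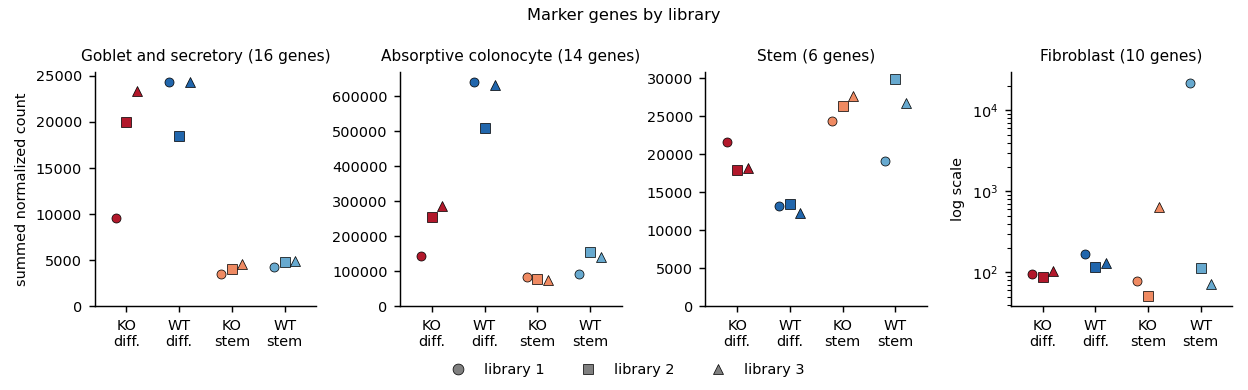
Summed normalized count of 4 marker lists in each library (symbols mark the library number), with a log axis for fibroblast markers only. The 3 KO differentiated libraries lie below the 3 WT differentiated libraries for colonocyte markers, KO differentiated library 1 is lowest of its group for goblet and colonocyte markers, and WT stem library 1 is far above the other libraries for fibroblast markers.

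Among the 12 initiating enzymes, 9 (75.0%) were called in KO and 10 (83.3%) in WT between culture conditions, beside 67.7% and 72.2% of all genes in these comparisons. In KO differentiated organoids 5 (41.7%, beside 13.9% of all genes) were lower than in WT differentiated organoids. None was higher, beside 13.8% of all genes. Galnt5 is among the 9 and the 10. In stem organoids none of the 12 was called by genotype with limma on all libraries, where 2 had an unadjusted p under 0.05, or with edgeR, and DESeq2 called 1, Galnt1. Of all genes 6.57% were called there with limma. Without both libraries that stood apart limma called Galnt1, Galnt7 and Galnt11 in stem organoids. Galnt4, which adds N-acetylgalactosamine to peptides that already carry it, had counts of 7293, 9850.4 and 9319.8 in KO differentiated, 12986, 13058 and 13138 in WT differentiated, 7206, 5298 and 5543 in KO stem and 5839.9, 6023 and 5485 in WT stem libraries. The KO differentiated values lay between the WT differentiated and the stem values, and 1 KO stem library came close to the lowest of them. The difference by genotype was -0.58 ± 0.12 (SE, adjusted p = 0.0069) in differentiated organoids and 0.04 ± 0.12 (SE, adjusted p = 0.86) in stem organoids. Galnt4 lies within Poc1b on the same strand (chr10:99108159-99113247, plus strand, GRCm38), so that the assignment of reads between them is uncertain.

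Galnt10, another enzyme that prefers partly glycosylated peptides, had counts of 3702, 3941 and 3826 in KO differentiated, 5515, 4563 and 4879 in WT differentiated, 1922, 1777 and 1691 in KO stem and 1759, 1669.9 and 1676 in WT stem libraries. Differentiated libraries were above all stem libraries, and the 3 KO differentiated libraries were below the 3 WT differentiated ones. It rose with differentiation by 1.09 ± 0.07 in KO and 1.55 ± 0.07 in WT, and the genotype difference was -0.38 ± 0.07 (SE, adjusted p = 0.0047) in differentiated and 0.08 ± 0.07 (SE, adjusted p = 0.56) in stem organoids.

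For Galnt6, a close relative of Galnt3, counts were 305, 1157 and 1305 in KO differentiated, 2123, 1259 and 1651 in WT differentiated, 112, 298 and 275 in KO stem and 132, 471 and 259 in WT stem libraries. KO differentiated library 1 was lower than the other libraries of its group and within the range of the stem libraries. The rise with differentiation was 1.88 ± 0.59 (SE, adjusted p = 0.015) in KO and 2.69 ± 0.59 (SE, adjusted p = 0.0015) in WT, and the KO call was lost without KO differentiated 2 or 3 or KO stem 1 (highest adjusted p = 0.066). The genotype difference in differentiated organoids, -1.08 ± 0.59 (SE, adjusted p = 0.19), did not pass the test.

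Galnt14 went the other way. Its counts were 162, 94.1 and 106 in KO differentiated, 82.4, 107 and 141 in WT differentiated, 646, 639 and 469 in KO stem and 721, 766 and 709.8 in WT stem libraries, with no overlap between differentiated and stem libraries. The difference with differentiation was -2.29 ± 0.23 (SE, adjusted p = 4.2e-06) in KO and -2.75 ± 0.23 (SE, adjusted p = 6.3e-07) in WT. Galnt2, a broadly acting member, also fell with differentiation, with counts of 3295, 3119 and 2837 in KO differentiated, 2711, 2341 and 2748 in WT differentiated, 4726, 4053 and 4377 in KO stem and 4674, 4082 and 3835 in WT stem libraries. The difference was -0.51 ± 0.09 (SE, adjusted p = 0.00054) in KO and -0.69 ± 0.09 (SE, adjusted p = 4.2e-05) in WT.

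Galnt3, which rose with differentiation (0.55 in KO and 0.83 in WT), fell in KO differentiated organoids (-0.37 ± 0.07 SE, adjusted p = 0.0032), as did Galnt7 (-0.63 ± 0.21 SE, adjusted p = 0.044) and Galnt12 (-0.28 ± 0.09 SE, adjusted p = 0.045). Galnt3 was the one of these whose call held without any 1 library. The call on Galnt7 was lost without KO differentiated 1 or 2, WT differentiated 1, 2 or 3 or KO stem 1, 2 or 3 (highest adjusted p = 0.17), and that on Galnt12 without KO differentiated 1 or 3, WT differentiated 1, 2 or 3 or KO stem 2 or 3 (highest adjusted p = 0.17). Both calls were also lost with edgeR, with quantile normalization and without the filter, and that on Galnt12 with only the groups compared and without the 2 libraries that stood apart. Galnt1 and Galnt11 rose with differentiation in both genotypes (0.50 and 0.26 in KO, 0.24 and 0.36 in WT), Galnt11 in KO lost its call without KO differentiated 1 or KO stem 2 or 3 (highest adjusted p = 0.074), and Galnt1 in WT with quantile normalization. Galnt5 had at most 2.15 in KO stem and 6.52 in WT stem libraries and 18.3 to 38.2 in differentiated libraries.

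Of the 7 core and branching enzymes, 6 (85.7%, beside 13.9% of all genes) were lower in KO differentiated organoids and none was higher. None of these 6 calls held without each library in turn. Gcnt3, the mucin-type branching enzyme that makes core 2 and core 4, had counts of 5836, 5686 and 4184 in KO differentiated, 13402, 12449 and 13853 in WT differentiated, 2099, 1067 and 495 in KO stem and 1304, 1095 and 1342 in WT stem libraries. All differentiated libraries were above all stem libraries, and the highest KO differentiated value was under the lowest WT differentiated value. The KO differentiated mean was 0.396 of the WT differentiated mean, a log2 difference of -1.35 ± 0.38 (SE, adjusted p = 0.022). That call was lost without KO differentiated 3 or WT differentiated 1 or 3 (highest adjusted p = 0.072), with a log2 difference between -1.44 and -1.20 over the 6 libraries left out in turn. In stem organoids the difference was -0.26 ± 0.38 (SE, adjusted p = 0.71), and the KO stem libraries spanned the WT stem range. Differentiation raised Gcnt3 by 2.32 ± 0.38 (SE, adjusted p = 0.00020) in KO and 3.41 ± 0.38 (SE, adjusted p = 7.1e-06) in WT.

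Gcnt4, a further core 2 branching enzyme, had counts of 258, 563 and 566 in KO differentiated, 879.6, 699.9 and 897 in WT differentiated, 66.3, 79.3 and 85.5 in KO stem and 181, 157 and 137 in WT stem libraries. KO libraries were below WT libraries in both conditions, and differentiated libraries were above stem libraries in both genotypes. The genotype difference was -0.91 ± 0.26 (SE, adjusted p = 0.026) in differentiated and -1.03 ± 0.26 (SE, adjusted p = 0.042) in stem organoids. The differentiated call was lost without WT differentiated 1 or 3 (highest adjusted p = 0.090) and with only the groups compared. The stem call was lost without WT differentiated 1, 2 or 3, KO stem 1, 2 or 3 or WT stem 1, 2 or 3 (highest adjusted p = 0.15), and also with edgeR, with quantile normalization and without the filter on low values. Its 2 promoter windows each held 1 GCGTG.

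Gcnt1, the core 2 enzyme found in many tissues, had counts of 2905, 4827 and 4801 in KO differentiated, 6252, 5806 and 6451 in WT differentiated, 5769, 7272 and 6419 in KO stem and 3685, 4555 and 5387 in WT stem libraries. In the differentiated condition the KO libraries were lower, with KO differentiated library 1 lowest, and in the stem condition the KO libraries were higher. By genotype the log2 difference was -0.60 ± 0.19 (SE, adjusted p = 0.036) in differentiated and 0.52 ± 0.19 (SE, adjusted p = 0.12) in stem organoids. Differentiation went with -0.67 ± 0.19 (SE, adjusted p = 0.0081) in KO and 0.46 ± 0.19 (SE, adjusted p = 0.046) in WT, called in opposite directions. The call on the genotype difference was lost without KO differentiated 1 or WT differentiated 1, 2 or 3 (highest adjusted p = 0.11) and with edgeR, quantile normalization, no filter or only the groups compared, and that of the WT rise without WT differentiated 1, 2 or 3, KO stem 1, 2 or 3 or WT stem 1 or 2 (highest adjusted p = 0.17) and with edgeR, quantile normalization or no filter.

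Gcnt2, which makes I-antigen branches on extended chains, had counts of 8270.3, 7458 and 6919 in KO differentiated, 6462, 6979 and 6259.9 in WT differentiated, 8214, 7086 and 6768 in KO stem and 5771, 5018 and 5417 in WT stem libraries. It rose in KO stem organoids (0.44 ± 0.09 SE, adjusted p = 0.015), where the groups did not overlap, and the call was lost without KO stem 1 or WT stem 2 (highest adjusted p = 0.064) and with only the groups compared. In differentiated organoids the ranges overlapped, with a difference of 0.20 ± 0.09 (SE, adjusted p = 0.12).

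The core-forming enzymes were lower in KO differentiated organoids. B3gnt6 had counts of 32.0, 21.4 and 34.1 in KO differentiated, 63.3, 64.5 and 59.1 in WT differentiated, 6.46, 10.3 and 15.3 in KO stem and 8.15, 8.86 and 10.4 in WT stem libraries. The WT differentiated libraries were above every other library, and the genotype difference in the differentiated condition was -1.10 ± 0.30 (SE, adjusted p = 0.022). That call was lost without KO differentiated 2 or WT differentiated 1, 2 or 3 (highest adjusted p = 0.077) and without the filter on low values. C1galt1 (-0.47 ± 0.12 SE, adjusted p = 0.014) and its chaperone C1galt1c1 (-0.24 ± 0.07 SE, adjusted p = 0.030) also fell. The C1galt1 call was lost without WT differentiated 3 (highest adjusted p = 0.052) and the C1galt1c1 call without KO differentiated 1 or WT differentiated 1 or 3 (highest adjusted p = 0.12) and with only the groups compared.

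Among the extending enzymes, B3gnt3 had counts of 18567, 23234 and 22903 in KO differentiated, 30591, 30685 and 31038 in WT differentiated, 22384, 21659.7 and 20599.5 in KO stem and 18064, 22111 and 21047 in WT stem libraries. The WT differentiated libraries were above the other 9 libraries. KO minus WT was -0.52 ± 0.09 (SE, adjusted p = 0.0032) in differentiated and 0.08 ± 0.09 (SE, adjusted p = 0.62) in stem organoids. Differentiation went with a difference of -0.01 ± 0.09 (SE, adjusted p = 0.96) in KO and a rise of 0.60 ± 0.09 (SE, adjusted p = 0.00012) in WT. B4galt1, a galactosyltransferase that builds N-acetyllactosamine, had counts of 10684, 10822 and 10638 in KO differentiated, 14469.6, 13765 and 12469.8 in WT differentiated, 5870.4, 5660.4 and 5574 in KO stem and 5454, 5995 and 5579 in WT stem libraries. KO differentiated values were close together and below the WT differentiated ones, a difference of -0.34 ± 0.06 (SE, adjusted p = 0.0031), and in stem organoids the difference was 0.01 ± 0.06 (SE, adjusted p = 0.96).

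B3gnt7, known for extending the chains of keratan sulfate, went against this direction. Its counts were 616, 674 and 556 in KO differentiated, 354, 518 and 470.2 in WT differentiated, 914, 984 and 887 in KO stem and 365, 509.7 and 490.5 in WT stem libraries. The KO stem libraries were the highest and lay above all others, and KO libraries were above WT libraries in both conditions. The genotype difference was 0.47 ± 0.16 (SE, adjusted p = 0.045) in differentiated and 1.04 ± 0.16 (SE, adjusted p = 0.0032) in stem organoids. The differentiated call was lost without KO differentiated 1 or 2, WT differentiated 1 or 3, KO stem 1, 2 or 3 or WT stem 3 (highest adjusted p = 0.16) and with quantile normalization, without the filter or with only the groups compared, whereas the stem call held under every alternative run. With differentiation the difference was -0.60 ± 0.16 (SE, adjusted p = 0.0054) in KO and -0.03 ± 0.16 (SE, adjusted p = 0.88) in WT. B4galt4, which acts on sulfated N-acetylglucosamine, was lower in KO differentiated organoids (-0.75 ± 0.15 SE, adjusted p = 0.0059) and rose with differentiation in both genotypes (0.84 in KO and 1.13 in WT). In stem organoids its genotype difference was -0.45 ± 0.15 (SE, adjusted p = 0.098), with no overlap between the groups. That difference was called with DESeq2, with only the groups compared and without both libraries that stood apart. B3gnt2, the main enzyme of poly-N-acetyllactosamine, was not called in any of the 5 comparisons without the block. B3gnt5, which acts on glycolipids, was called once, higher in KO differentiated than in KO stem organoids (1.05 ± 0.39 SE, adjusted p = 0.032), with overlapping libraries, and that call was lost without KO differentiated 2 or 3 or KO stem 1 or 2 (highest adjusted p = 0.13), without the filter and with quantile normalization.

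The sialyltransferases differed in direction by genotype. St6galnac6, which works on gangliosides and on disialylated Lewis structures, had counts of 1715, 3946 and 3559 in KO differentiated, 7556, 6273 and 7062 in WT differentiated, 133, 142 and 138 in KO stem and 267, 305 and 295 in WT stem libraries. Stem and differentiated libraries were far apart, and KO libraries were below WT libraries in both conditions. The difference by genotype was -1.27 ± 0.24 (SE, adjusted p = 0.0040) in differentiated and -1.06 ± 0.24 (SE, adjusted p = 0.025) in stem organoids. The differentiated call held under every alternative run. The stem call was lost without KO stem 1, 2 or 3 or WT stem 2 or 3 (highest adjusted p = 0.095), although the log2 difference stayed between -1.12 and -1.02. Differentiation raised it by 4.38 ± 0.24 (SE, adjusted p = 3.8e-08) in KO and 4.58 ± 0.24 (SE, adjusted p = 1.6e-08) in WT. St6galnac6 starts 10 bases after the end of St6galnac4 on chromosome 2, plus strand.

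St6gal1, which acts mainly on N-glycans, had counts of 1694, 925 and 652 in KO differentiated, 413, 375 and 463 in WT differentiated, 74.3, 61.6 and 32.6 in KO stem and 39.1, 19.9 and 18.5 in WT stem libraries. Every differentiated library was above every stem library, and KO differentiated library 1 was the highest of all. By genotype the log2 difference was 1.27 ± 0.39 (SE, adjusted p = 0.033) in differentiated and 1.09 ± 0.39 (SE, adjusted p = 0.12) in stem organoids. The stem difference was called with DESeq2, with the block over all groups and without both libraries that stood apart. In the differentiated condition the call was lost without KO differentiated 1 or 2 or WT differentiated 1, 2 or 3 (highest adjusted p = 0.14) and without the filter on low values, and the log2 difference lay between 0.90 and 1.59 over the 6 compared libraries left out in turn. Differentiation raised it by 4.22 ± 0.39 (SE, adjusted p = 2.3e-06) in KO and 4.04 ± 0.39 (SE, adjusted p = 2.3e-06) in WT.

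St3gal4, which sialylates N-acetyllactosamine ends, had counts of 5577, 7367 and 7889 in KO differentiated, 14258, 10464 and 15170.5 in WT differentiated, 16883, 17628 and 18205 in KO stem and 17872, 21608 and 20366 in WT stem libraries. The KO differentiated libraries were below all the others. KO minus WT was -0.93 ± 0.15 (SE, adjusted p = 0.0019) in differentiated organoids, where it held under every alternative run, and -0.18 ± 0.15 (SE, adjusted p = 0.49) in stem organoids. It was lower in differentiated than in stem organoids, with differences of -1.35 ± 0.15 (SE, adjusted p = 9.3e-06) in KO and -0.60 ± 0.15 (SE, adjusted p = 0.0035) in WT. St3gal6, a related enzyme, had counts of 2055, 2627 and 2224 in KO differentiated, 2323, 2550.0 and 2389 in WT differentiated, 5694, 7007 and 6447 in KO stem and 5181, 6488 and 6619 in WT stem libraries, with a genotype difference of -0.08 ± 0.12 (SE, adjusted p = 0.64) in differentiated organoids. It was lower in differentiated than in stem organoids (-1.47 ± 0.12 in KO and -1.32 ± 0.12 in WT).

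St3gal1, which caps core 1 with sialic acid, had counts of 942, 938 and 892 in KO differentiated, 647, 757 and 754 in WT differentiated, 1005, 1113 and 1020.0 in KO stem and 654, 605 and 725 in WT stem libraries. KO libraries were above WT libraries in both conditions with no overlap. The genotype difference was 0.36 ± 0.09 (SE, adjusted p = 0.013) in differentiated and 0.66 ± 0.09 (SE, adjusted p = 0.0017) in stem organoids, and the differentiated call was lost without WT differentiated 1 (highest adjusted p = 0.055). St3gal3, which acts on N-acetyllactosamine and Lewis-type precursors, had counts of 4624, 3643 and 3699.7 in KO differentiated, 5594, 4742 and 4965 in WT differentiated, 2338, 1853 and 1892 in KO stem and 3034, 3165 and 3009.8 in WT stem libraries. Here KO libraries were below WT libraries in both conditions, with -0.36 ± 0.11 (SE, adjusted p = 0.032) in differentiated and -0.61 ± 0.11 (SE, adjusted p = 0.0087) in stem organoids. Its differentiated call was lost without KO differentiated 2 or 3 or WT differentiated 1 or 3 (highest adjusted p = 0.12) and with edgeR, quantile normalization or only the groups compared, and its stem call held. The remaining sialyltransferases St6galnac2 and St6galnac4, which act on core 1 and sialylated core 1, were not called by genotype with limma on all libraries without the block. In stem organoids St6galnac4 was called with DESeq2 and with the block over all groups. Without both libraries that stood apart, St6galnac2 and St6galnac4 were called there. Counts of St6galnac4 were 482, 610 and 418 in KO stem and 220, 336 and 327 in WT stem libraries. With differentiation St6galnac2 rose in both (1.45 in KO and 1.12 in WT), and St6galnac4 rose in WT (0.86 ± 0.22 SE, adjusted p = 0.0038), with -0.01 ± 0.22 (SE, adjusted p = 0.97) in KO.

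Fut2, which makes the H structure of secretor individuals, had counts of 1905, 2503 and 2828 in KO differentiated, 3281, 3791 and 3543 in WT differentiated, 6198, 6850.0 and 6902 in KO stem and 5126, 8121 and 7364 in WT stem libraries. Differentiated libraries were below stem libraries in both genotypes, and KO differentiated libraries were below WT differentiated ones. By genotype the log2 difference was -0.57 ± 0.17 (SE, adjusted p = 0.028) in differentiated and -0.02 ± 0.17 (SE, adjusted p = 0.95) in stem organoids. The differentiated call was lost without KO differentiated 1 or WT differentiated 1, 2 or 3 (highest adjusted p = 0.11) and with quantile normalization. The difference with differentiation was -1.48 ± 0.17 (SE, adjusted p = 1.2e-05) in KO and -0.93 ± 0.17 (SE, adjusted p = 0.00037) in WT.

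Chst4, which adds sulfate to N-acetylglucosamine, had counts of 2290.0, 2120.2 and 2171 in KO differentiated, 1651, 1930.1 and 1474 in WT differentiated, 4072, 3933 and 3984 in KO stem and 2185, 2825 and 2782 in WT stem libraries. The KO stem libraries were the highest and close together. KO libraries were above WT libraries in both conditions, by 0.39 ± 0.11 (SE, adjusted p = 0.023) in differentiated and 0.63 ± 0.11 (SE, adjusted p = 0.0069) in stem organoids. The differentiated call was lost without KO differentiated 1 or WT differentiated 1 or 3 (highest adjusted p = 0.097), and the stem call held under every alternative run. Differentiation went with -0.87 ± 0.11 (SE, adjusted p = 2.7e-05) in KO and -0.62 ± 0.11 (SE, adjusted p = 0.00029) in WT. Fut4, which makes Lewis x structures, and Fut8, the core fucosyltransferase of N-glycans, rose with differentiation in both genotypes (1.48 and 0.69 in KO, 1.59 and 0.53 in WT) and were not called by genotype.

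**Figure D5:**
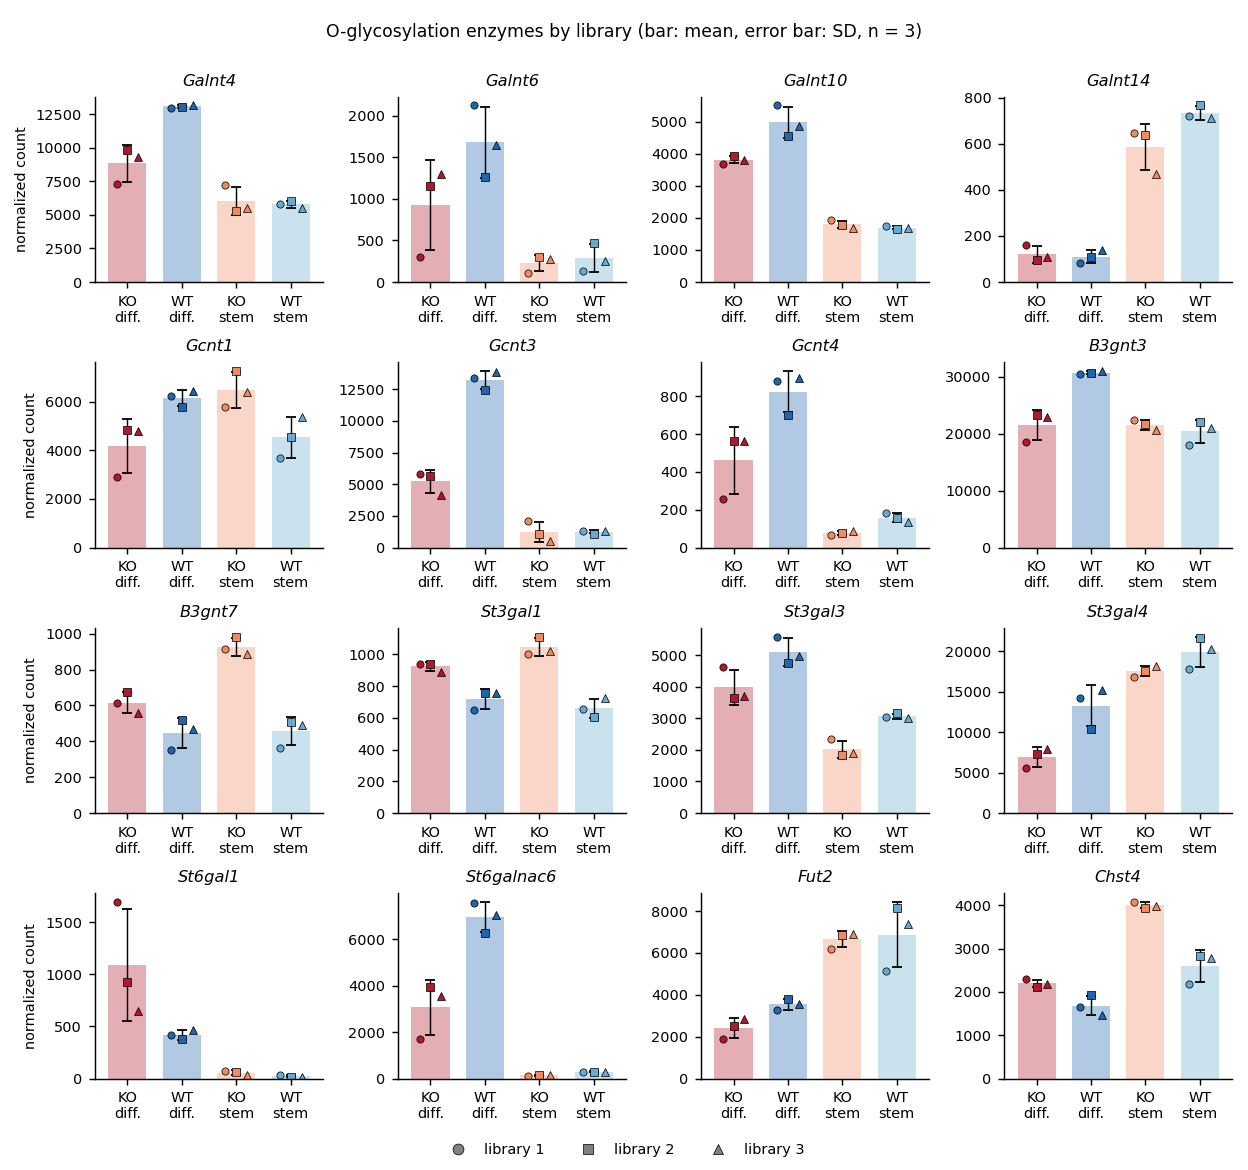
Normalized counts of 16 enzyme genes in each library, with bars for group means, error bars for SD (n = 3) and symbols for the library number. Galnt4, Galnt10, Gcnt3, B3gnt3 and St3gal4 have KO differentiated libraries that lie below the WT differentiated ones, and B3gnt7, St3gal1 and Chst4 have KO libraries above WT libraries in both conditions.

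Whether the response to differentiation differed by genotype was tested as an interaction. Of 37 members 6 (16.2%) were called, all negative, beside 8.7% of all genes (5.12% positive and 3.58% negative). The interaction, KO response minus WT response, was called for Galnt4 (-0.62 ± 0.17 SE, adjusted p = 0.049), Galnt10 (-0.46 ± 0.10 SE, adjusted p = 0.026), Gcnt1 (-1.12 ± 0.27 SE, adjusted p = 0.030), B3gnt3 (-0.60 ± 0.13 SE, adjusted p = 0.022), B4galt1 (-0.35 ± 0.09 SE, adjusted p = 0.034) and St3gal4 (-0.76 ± 0.21 SE, adjusted p = 0.049). The median interaction was -0.24 over the members and 0.04 over all genes. None of the 6 calls held without each library in turn. With limma the count was 0 without KO stem 1, KO stem 2 or WT differentiated 1, where 16, 10 and 14 members had an unadjusted p under 0.05, it was 1 without WT differentiated 3, and it was 3 without KO differentiated 1, KO stem 3 or WT stem 3. Calls over all genes fell from 1292 to 420 without KO stem 1 and 459 without KO stem 2. They fell to 524 without WT differentiated 1 and 342 without WT differentiated 3. The member count was also lower under other settings. Without the filter on low values or with quantile normalization it was 3, with Galnt10, Gcnt1 and B3gnt3 kept. With the replicate number as a block within genotype, Galnt4 (adjusted p = 0.096) and St3gal4 (adjusted p = 0.054) were not called, and both also lost their call without the 2 libraries that stood apart (adjusted p = 0.065 and 0.089). The block over all groups lost Galnt4 (adjusted p = 0.053). Gcnt3, with -1.09 ± 0.53 (SE, adjusted p = 0.21), and B3gnt6, with -1.23 ± 0.43 (SE, adjusted p = 0.092), did not pass the test.

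Genes that supply or carry the sugars were read beside the enzymes. Of 26 genes of sugar and sulfate donor synthesis and Golgi transport, 25 were tested. In differentiated organoids 2 were higher and 10 lower in KO, with a median of -0.26 (all genes 0.02), and in stem organoids none was higher and 3 were lower, with a median of -0.10 (all genes -0.04). Of all genes 13.8% were higher and 13.9% lower in differentiated organoids, and 3.48% and 3.09% in stem organoids. Papss2, which makes the sulfate donor PAPS, fell in both conditions (-1.85 ± 0.21 SE, adjusted p = 0.00042 in differentiated and -1.02 ± 0.21 SE, adjusted p = 0.018 in stem organoids). The sulfate transporter Slc26a2 (-0.76 ± 0.09 SE, adjusted p = 0.00058) and Ugp2, which makes UDP-glucose (-0.63 ± 0.15 SE, adjusted p = 0.012), fell in KO differentiated organoids, and Nanp, a phosphatase of sialic acid synthesis, rose (0.57 ± 0.18 SE, adjusted p = 0.036). Pgm3 (-0.33) and Nans (-0.25) were the other calls in stem organoids. Between culture conditions 8 of the 25 were higher and 6 lower in KO, beside 67.7% of all genes called, and 11 were higher and 5 lower in WT, beside 72.2%. Among them were Papss2 (2.63 in KO and 3.46 in WT) and the galactokinase Galk1 (-2.76 in KO and -3.0 in WT). In the interaction 2 of the 25 were called, Slc26a2 (-0.76) and Fpgt (-0.41), beside 8.7% of all genes.

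Of 11 mucin genes, 7 were tested. In both genotypes 6 of them rose with differentiation and none fell, with log2 differences of Muc4 of 3.76 in KO and 4.27 in WT. Of all genes 34.1% were higher in KO and 36.3% in WT. By genotype 1 of the 7 was higher and 1 lower in KO differentiated organoids, beside 27.6% of all genes called. In stem organoids 1 was higher and none lower, beside 6.57% called. The membrane mucin Muc3 fell in differentiated organoids (-2.61 ± 0.61 SE, adjusted p = 0.011) and Muc20 rose in both conditions (1.68 ± 0.22 SE, adjusted p = 0.00070 in differentiated and 1.62 ± 0.22 SE, adjusted p = 0.0017 in stem organoids). Muc2, the gel-forming mucin of goblet cells, shown although it was not called by genotype, had counts of 217, 629.8 and 586 in KO differentiated, 975, 619 and 1052 in WT differentiated, 33.9, 64.6 and 116 in KO stem and 112, 97.5 and 85.4 in WT stem libraries, and its genotype difference was -0.99 ± 0.46 (SE, adjusted p = 0.13) in differentiated organoids. KO differentiated library 1 was the lowest differentiated library for Muc2.

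Among 28 related transferases outside the group, 17 were tested. In differentiated organoids 3 were higher and 4 lower in KO, beside 27.6% of all genes called, and in stem organoids 1 was higher, beside 6.57% called. Fut9, a Lewis x fucosyltransferase, rose in both (1.58 ± 0.14 SE, adjusted p = 0.00011 in differentiated and 1.86 ± 0.14 SE, adjusted p = 3.4e-05 in stem organoids). B3galt5, which makes type 1 chains (-2.73 ± 0.75 SE, adjusted p = 0.021), and Gal3st2, a galactose sulfotransferase (-2.77 ± 0.61 SE, adjusted p = 0.0081), fell in KO differentiated organoids, and the ganglioside sialyltransferase St3gal5 rose (1.13 ± 0.32 SE, adjusted p = 0.024). None was called in the interaction with limma, beside 8.7% of all genes, and 5 had an unadjusted p under 0.05 there. Of 16 genes of Golgi retention and homeostasis, 3 were lower and none higher in KO differentiated organoids, namely Golph3l (-0.67), Golgb1 (-0.42) and Cog6 (-0.32), and none was called with limma in stem organoids or in the interaction, where 3 and 6 had an unadjusted p under 0.05. Of all genes 27.6% were called by genotype in differentiated organoids, 13.8% higher and 13.9% lower in KO. In stem organoids 6.57% of all genes were called by genotype, and 8.7% in the interaction.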

How the data were processed

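RNA of 12 mouse colonic organoid libraries, 3 in each of 4 groups, was measured by RNA-seq. The authors deposited one table of normalized counts, a signal per gene that the submitters' processing notes connect with Bowtie2, RSEM 1.2.11 and DESeq2 1.18.1 on GRCm38. The gene annotation and the use of strand in counting are not given in the sources used here. Comparing low genes within a library showed that values were whole multiples of what 1 read was worth, and 100% of values came out whole within a tolerance of 0.05. Libraries held 25.1 to 99.0 M reads. Normalization by size factors assumes that most genes do not change between libraries.

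A gene was kept if 3 or more libraries had a normalized count of 10 or more, which left 14856. After adding a pseudocount of 1 and taking log2, 1 linear model with a mean for each group was fitted over all 12 libraries with limma 3.58.1 in R 4.3.3, with Benjamini-Hochberg adjustment over all genes tested and a threshold of 0.05. Fold changes on this scale understate the change of low genes. Alternatives were pseudocounts of 0.5 and 5, no filter, quantile normalization, edgeR 4.0.16, DESeq2 1.42.0 (both run on whole reads), fits to the compared groups alone, the replicate block and each library left out in turn. The limma, edgeR and DESeq2 fits were also run on simulated counts with known changes. These changes were placed in the genotype comparison of stem organoids and the culture comparison of WT organoids. The spread setting was the same for all genes. The other comparisons and libraries that stand apart were not simulated. The members and gene lists were chosen with earlier results of these data known. Members given in every library were those among the 4 largest changes in either direction of any comparison that were called and had a group mean of at least 50, and all those called in the interaction. At most 4 called genes of another list were named for each comparison.

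Libraries with the same number deviated together in KO, with correlations of 0.286, 0.191 and 0.256 over genes between differentiated and stem libraries, and were read as pairs there. Labels do not say what a number shares. Levels per kb used the union of exons in GENCODE vM21. Promoter windows came from RefSeq, build GRCm38.p6.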

Additional observations from a re-analysis of the deposited data

Results flagged for a closer look

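The response to differentiation was called as different between KO and WT organoids for 6 of the 37 members tested (16.2%, beside 8.7% of all genes). The call was made by the interaction term of limma with Benjamini-Hochberg adjustment. The interaction, KO response minus WT response on the log2 scale, was -1.12 for Gcnt1, -0.76 for St3gal4, -0.62 for Galnt4, -0.60 for B3gnt3, -0.46 for Galnt10 and -0.35 for B4galt1. Each of the 6 lost its call without at least 1 library, with highest adjusted p-values of 0.077 for Gcnt1, 0.12 for St3gal4, 0.11 for Galnt4, 0.062 for B3gnt3, 0.064 for Galnt10 and 0.079 for B4galt1.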

How the results depend on the processing

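Of 92 called member values, 64 kept their call without any 1 library, and over 1989 alternatives of these values 1808 kept the call, 181 lost it and none changed direction. Of 93 values that were not called, 34 changed sign under at least 1 alternative. In stem organoids the number of members called by genotype was 11 with DESeq2, against 7, and 15 without WT stem library 1 and KO differentiated library 1, a choice made after seeing the data. Leaving out each library in turn gave 9 to 23 in differentiated and 4 to 12 in stem organoids by genotype, 26 to 29 in KO and 27 to 29 in WT by culture condition, and 0 to 4 in the interaction with limma. Over all genes the same runs gave 2233 to 5699 calls in differentiated and 363 to 1414 in stem organoids by genotype, and 342 to 1603 in the interaction. The interaction count was 3 without the filter on low values and 3 with quantile normalization, against 6. Numbers of calls by genotype thus changed by over 1.5 times, and the cause was not tested.

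With the replicate number as a block over all groups, 23 members were called by genotype in differentiated and 10 in stem organoids, 31 by culture condition in KO, 30 in WT and 9 in the interaction, where 5 of the 6 calls were kept, Galnt4 was lost and Galnt3, C1galt1, St6galnac4 and Fut2 were gained. With the block within genotype, 31 were called in KO, 30 in WT and 7 in the interaction, where 4 of the 6 calls were kept, Galnt4 and St3gal4 were lost and C1galt1, B3gnt7 and St6galnac4 were gained. Same-numbered libraries of WT had correlations of 0.107, 0.0552 and 0.145, and differently numbered ones had -0.103 to 0.0111. These correlations were weaker than in KO, and what a number shares in WT is not known.

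Depth was 25.1 M reads or more, and B3gnt8, Chst5 and St6galnac1 stayed under the minimum at this depth. Leaving out a library leaves 2 in its group.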
